A study of Mus musculus with 51 samples.

Results

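The genes described here are a list of 33 genes that fibroblasts transcribe to build and maintain the interstitial matrix: fibrillar, microfibrillar and vessel-wall collagens, small leucine-rich proteoglycans, fibulins, adhesive glycoproteins, matrix crosslinking enzymes and fibroblast surface receptors. Among the probe sets that carry 1 gene symbol, the brightest on average stood for its gene. Such a probe set was found for 32 of the 33 genes (Fbn1, the microfibril protein fibrillin-1, is not analysed here), and all 32 passed the filter on low values, among 15150 genes tested and 18192 genes with a probe set of a single symbol. Membership in the list was set by name and used no measured value of these arrays as a criterion, although the list was drawn up with earlier results of these data known.

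Interstitial matrix is the loose, collagen-rich tissue that surrounds the ducts of the mammary gland. Its fibroblasts secrete procollagens, which are trimmed, assembled into fibrils, spaced by small proteoglycans such as decorin and lumican, and joined covalently by lysyl oxidases. Pdgfra and Pdgfrb encode the receptors for platelet-derived growth factors, which are commonly used to mark fibroblasts and, for Pdgfrb, pericytes. Type IV collagen belongs to the basement membrane, which epithelial and endothelial cells also make.

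RNA was hybridised to Affymetrix mouse whole-genome arrays, 51 in all. Tumors arose in Wap-Cre mice with a conditional Etv6-NTRK3 knock-in allele, where the whey acidic protein promoter drives Cre in mammary epithelium and so switches on the fusion kinase, together with a Rosa-Stop-lacZ reporter that marks the recombined cells. The groups were unsorted primary tumors of that genotype (23 arrays of 22 tumors from 14 mice), lacZ+ sorted cells of primary tumors (8 tumors from 6 mice), lacZ+ sorted hyperplastic mammary epithelial cells (4 mice), unsorted tumors grown from transplants in RAG2-/- recipients (4 tumors from 2 donor mice), lacZ+ sorted cells of such transplanted tumors (7 tumors from 5 donor mice, passages 1 to 4) and unsorted mammary glands of wild-type mice (5 mice). RAG2-/- recipients lack mature B and T cells and keep their own fibroblasts and vessels, so stroma in a transplant can come from the host. The labels used here give no age, pregnancy or lactation state.

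All levels are log2 of the deposited intensity with a floor at an intensity of 32, which is 5 on this scale. A value at 5.00 therefore means only that the gene was not above the floor, and a fold that involves such values is understated. Intensities of different probe sets are not comparable, so levels are compared only within a gene. In these bulk RNA samples, fewer fibroblasts and less RNA per fibroblast cannot be told apart.

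Promoter sequence was matched by symbol in RefSeq (GRCm38.p6) for 20 of the member genes, and the 250 bases before the annotated start are printed for 4 genes on which the results below turn. Col1a2 and Col3a1 had the highest r with Col1a1 over mouse means among its 14 fixed partners, although Col15a1 ranked above Col3a1 by rho and, with Col6a1, by r over single tumors, and Dpt and Pdgfra lay wholly below the gland in unsorted tumors. The Col1a2 window is chr6:4505368-4505617, the Col3a1 window chr1:45311288-45311537, the Dpt window chr1:164796413-164796662 and the Pdgfra window chr5:75152001-75152250, each on the plus strand. Capitals mark exact matches on either strand to CCAAT, to the letters TATAAA or to the letters GGGCGG, which do not overlap one another in these windows.
Col1a2: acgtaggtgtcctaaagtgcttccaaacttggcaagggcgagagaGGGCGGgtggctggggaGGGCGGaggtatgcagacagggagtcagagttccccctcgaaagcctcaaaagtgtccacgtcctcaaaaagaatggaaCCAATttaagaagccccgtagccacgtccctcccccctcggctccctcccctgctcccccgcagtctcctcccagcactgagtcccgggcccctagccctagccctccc
Col3a1: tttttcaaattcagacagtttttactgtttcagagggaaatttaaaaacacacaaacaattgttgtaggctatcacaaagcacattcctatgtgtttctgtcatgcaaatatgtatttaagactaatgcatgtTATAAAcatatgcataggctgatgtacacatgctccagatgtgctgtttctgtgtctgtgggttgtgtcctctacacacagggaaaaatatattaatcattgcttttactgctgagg
Dpt: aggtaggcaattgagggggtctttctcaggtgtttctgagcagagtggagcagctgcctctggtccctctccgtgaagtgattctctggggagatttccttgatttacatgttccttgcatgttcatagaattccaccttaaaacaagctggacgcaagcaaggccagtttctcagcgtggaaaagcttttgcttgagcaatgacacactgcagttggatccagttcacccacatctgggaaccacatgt
Pdgfra: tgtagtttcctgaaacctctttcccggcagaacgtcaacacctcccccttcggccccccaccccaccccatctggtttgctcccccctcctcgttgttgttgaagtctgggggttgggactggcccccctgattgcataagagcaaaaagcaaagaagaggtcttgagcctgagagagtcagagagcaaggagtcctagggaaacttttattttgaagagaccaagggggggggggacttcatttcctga
The Col1a2 window held CCAAT 109 bases before the start and GGGCGG 205 and 188 bases before it. Col3a1 held TATAAA once. The Dpt and Pdgfra windows held none of these letters. Over 300-base windows that also take in the first 50 bases of the transcript, CCAAT was present in 28.0% of the 25 windows of member genes and in 33.8% of all 32851 windows. TATAAA was present in 8.0% and 12.4%, and GGGCGG in 52.0% and 32.7%. These matches are a description of the letters and locate no binding site.

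Array quality bears on some of the comparisons. The log2 signal of spiked-in control transcripts was 12.39 and 11.31 in hyperplasia replicates 1 and 2, against 9.19 and 8.80 in replicates 3 and 4 and 8.08 to 10.16 in sorted primary tumors. Wild-type gland replicate 4 had the highest ratio of 3′ over 5′ Actb probes, 2.18 on the log2 scale. The epithelial marker Epcam was well above the floor in every group, at 10.40 to 11.76 in sorted hyperplasia and 9.82 to 12.43 in sorted primary tumors. Transcripts that mark other cells were present in the sorted libraries: Csf1r, the macrophage growth factor receptor, reached 13.36 in sorted hyperplasia, above its highest value of 11.24 in unsorted gland. Of 12 endothelial markers only Pecam1 was at the floor in all sorted primary tumors, and Cdh5 read 5.14 to 7.68 there.

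The first comparison asked how far the matrix genes of whole tumors lay from those of whole normal gland. The matrix program was lower in tumors: 27 of the 32 members fell, 1 rose (Fbln1) and 4 passed in neither direction (limma, adjusted p under 0.05), where 21.5% of all tested genes fell and 29.4% rose. The median difference over the members was -2.09 on the log2 scale, against 0.095 over all tested genes. The largest falls belonged to decorin, dermatopontin, lumican, Efemp1 and Pdgfra, and 6 members (Dcn, Lum, Dpt, Efemp1, Pdgfra and Gsn) lay in all 22 tumors below all 5 glands, a position held by 7.56% of all tested genes. The limma p-values rest on 1 spread per gene, pooled over all 6 groups. The median SD of the members was 0.46 in gland and 1.04 in unsorted primary tumors, so the pooled spread is that of neither group. As several tumors came from some mice, the mouse was kept as a random block. The block weights samples by mouse, so a fitted difference can depart from that of the plain group means.

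**Figure D1:**
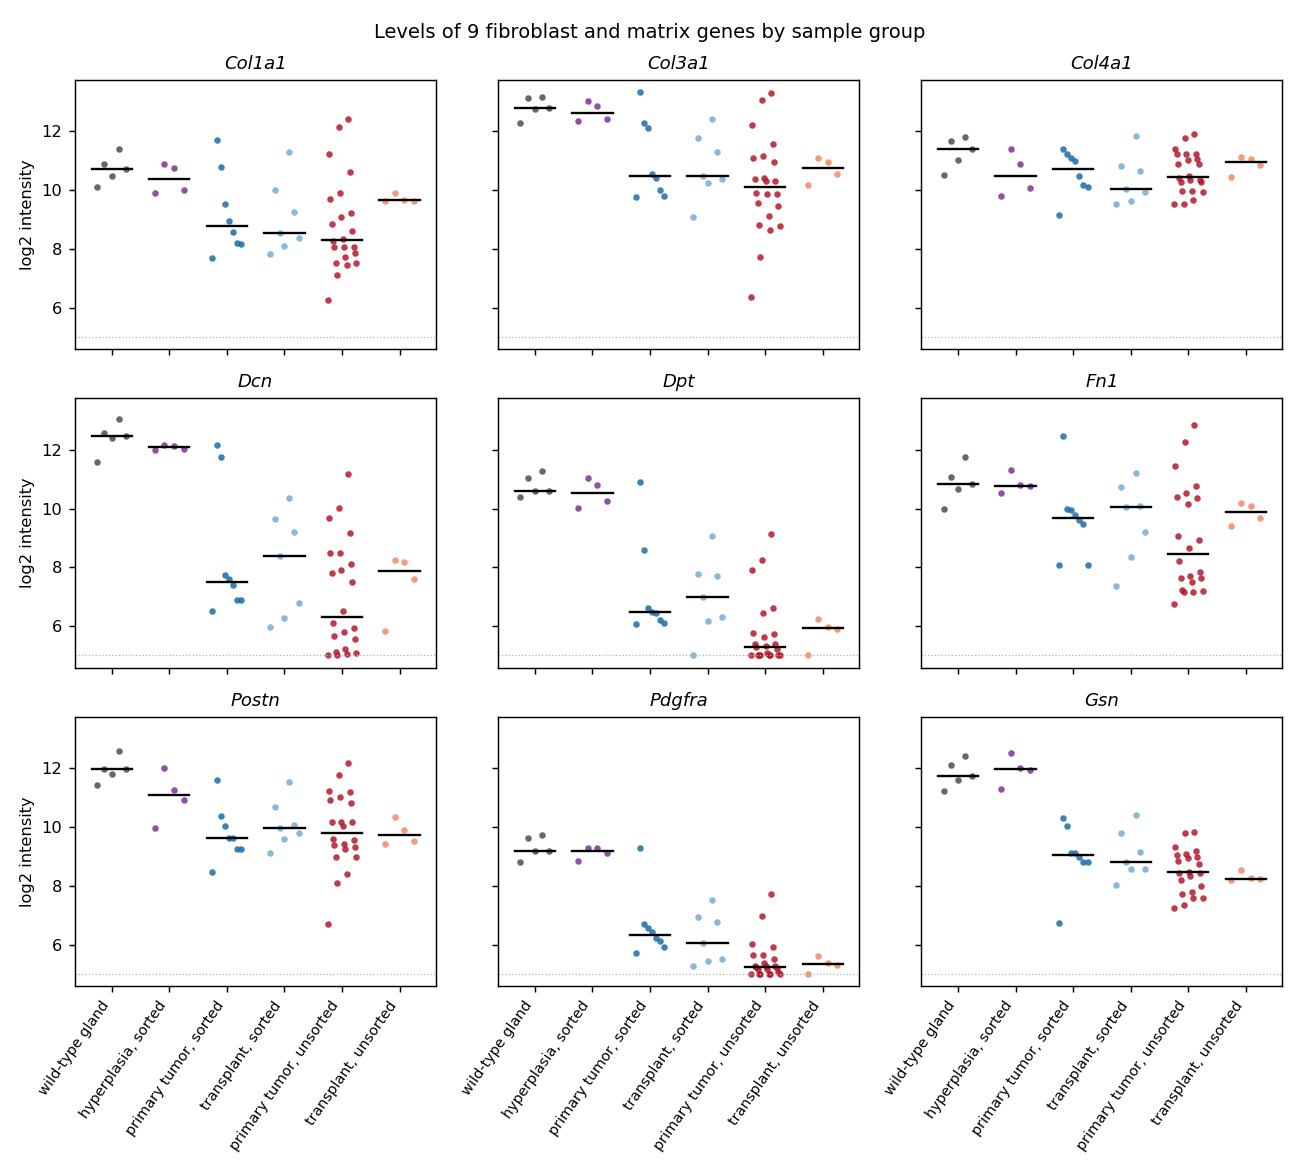
Log2 levels (vertical axis, floor at 5 as a dotted line) of 9 members in the 6 groups (horizontal axis); each point is a sample and each bar the group median. Dcn, Dpt, Pdgfra and Gsn in unsorted primary tumors lie wholly below the wild-type gland, while the highest tumors of Col1a1, Col3a1, Col4a1, Fn1 and Postn reach into or above its range.

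The fibrillar collagens and their partners (Col1a1, Col1a2, Col3a1, Col5a1, Col5a2 and Col14a1) fell in 6 of 6, with a median of -2.43. Col1a1, a chain of type I collagen, read 10.11, 10.48, 10.72, 10.90 and 11.41 in the 5 glands and ranged from 6.25 to 12.42 with a median of 8.31 in the 22 tumors. Most tumors lay under the gland but the ranges overlapped, and the difference was -2.02 ± 0.69 (SE), adjusted p = 0.0129. Col3a1, the type III collagen of pliable tissue, read 12.28, 12.74, 12.79, 13.13 and 13.17 in gland and from 6.36 to 13.32 with a median of 10.10 in tumors. Its lowest tumor was over 5 log2 units below any gland, its highest above all glands, and the difference was -2.83 ± 0.66 (SE), adjusted p = 3.42e-04. Col1a2, the partner chain of Col1a1, ranged from 6.94 to 12.86 with a median of 9.06 in tumors against 11.37 to 12.67 in gland. Col5a1 and Col5a2, chains of the type V collagen that nucleates fibrils, had tumor medians of 6.78 and 8.24 against gland medians of 9.48 and 10.65. Col14a1, a fibril-associated collagen, ranged from 5.80 to 9.42 with a median of 6.89 in tumors against 8.32 to 9.12 in gland.

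The 3 chains of type VI collagen, which forms beaded filaments around cells, fell together with differences of -2.11 for Col6a1, -2.61 for Col6a2 and -1.89 for Col6a3. Col6a1 read 9.40, 9.81, 9.92, 10.02 and 10.11 in gland and from 6.84 to 10.78 with a median of 7.54 in tumors. Col6a2 ranged from 6.31 to 10.33 with a median of 7.16 in tumors and 9.21 to 10.38 in gland, and Col6a3 from 6.85 to 10.52 with a median of 7.64 and 9.16 to 10.44. In each of these genes at least 1 tumor reached the gland range.

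Of the 3 collagens of the basement membrane zone and vessels, Col15a1 and Col4a2 fell and Col4a1 did not pass the test. Col4a1 read 10.51, 11.02, 11.41, 11.66 and 11.79 in gland and from 9.51 to 11.89 with a median of 10.46 in tumors, with a difference of -0.75 ± 0.35 (SE), adjusted p = 0.0665. Of the 22 tumors, 12 lay below every gland and 1 above every gland. Col4a1 did pass with quantile normalization (-1.15, adjusted p = 0.00373), with the mean of its probe sets (-0.91), with means per mouse (-0.81), without gland replicate 5 (-0.94) and without C117T6 and B459L (-0.81), the last 4 at adjusted p = 0.0340 to 0.0468 (limma). Col4a2, its partner chain in type IV collagen, ranged from 7.74 to 10.61 with a median of 9.09 against 9.54 to 10.56 in gland and differed by -1.04 ± 0.35 (SE), adjusted p = 0.0113. Col15a1, a proteoglycan collagen next to basement membranes, ranged from 5.02 to 9.25 with a median of 6.21 against 7.67 to 9.52. A further Col4a1 probe set was called lower, with -1.08 ± 0.43 (SE), adjusted p = 0.0347.

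The small proteoglycans and dermatopontin fell in 4 of 4 with a median of -4.91. Dcn (decorin, which spaces collagen fibrils) read 11.60, 12.42, 12.48, 12.57 and 13.03 in gland and from 5.00 to 11.16 with a median of 6.31 in tumors, with 20 of 22 tumors above the floor. The groups did not overlap, and the difference of -5.60 ± 0.88 (SE), adjusted p = 8.18e-07 corresponds to 48.4-fold lower. Dpt (dermatopontin, a small matrix protein that binds decorin) read 10.39, 10.60, 10.60, 11.04 and 11.28 in gland and from 5.00 to 9.12 with a median of 5.30 in tumors. It was above the floor in 14 of 22 tumors, all of them below every gland, and differed by -5.12 ± 0.60 (SE), adjusted p = 1.83e-09, 34.7-fold. Lum (lumican, a keratan sulfate relative of decorin) read 10.003, 10.10, 10.83, 10.99 and 11.07 in gland and from 5.00 to 9.30 with a median of 5.65 in tumors, with 13 of 22 above the floor and a difference of -4.70 ± 0.59 (SE), adjusted p = 8.98e-09. Bgn (biglycan), the other decorin relative on the list, showed the smallest fall of this set. It read 10.91, 11.25, 11.40, 11.53 and 11.58 in gland and from 8.13 to 12.74 with a median of 10.20 in tumors, overlapping, and differed by -1.17 ± 0.49 (SE), adjusted p = 0.0400. That call was lost when any of gland replicates 1, 2, 3 or 5 was left out (adjusted p = 0.0661 to 0.0822) and with the 3′ over 5′ Actb ratio, a sign of RNA quality, in the model (adjusted p = 0.0645). The difference itself stayed at -1.19 to -1.11 in these settings.

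Among the 4 microfibril and fibulin genes measured, 2 fell, 1 rose and 1 did not pass. Efemp1 (fibulin-3) read 8.83, 9.22, 9.32, 9.64 and 10.25 in gland, was above the floor in 7 of 22 tumors with a highest value of 8.22, and differed by -3.99 ± 0.52 (SE), adjusted p = 1.67e-08. Mfap5, a microfibril-associated glycoprotein, read 8.83, 8.98, 9.41, 9.51 and 9.78 in gland and from 5.00 to 10.01 with a median of 6.17 in tumors, with a difference of -3.05 ± 0.64 (SE), adjusted p = 8.65e-05. Fbln1 (fibulin-1) read 6.21, 6.58, 6.94, 7.01 and 7.12 in gland and from 6.87 to 7.99 with a median of 7.49 in tumors, overlapping, and rose by 0.66 ± 0.14 (SE), adjusted p = 7.18e-05. The rise was seen with the brightest probe set alone: the mean over all Fbln1 probe sets differed by 0.090 (adjusted p = 0.706). Fbln2 (fibulin-2) ranged from 6.73 to 10.55 with a median of 9.04 against 9.02 to 9.78 and did not pass, at -0.39 ± 0.40 (SE), adjusted p = 0.428.

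Of the adhesive glycoproteins, Fn1 and Postn fell and Sparc did not pass. Fn1 (fibronectin) read 9.99, 10.67, 10.84, 11.07 and 11.76 in gland and from 6.76 to 12.84 with a median of 8.44 in tumors, the widest tumor range of this set. Its difference was -1.96 ± 0.73 (SE), adjusted p = 0.0229, and it no longer passed without gland replicate 1 (adjusted p = 0.0704) or as the mean of its probe sets (-0.92, adjusted p = 0.148). Postn (periostin, a matricellular collagen-binding protein) read 11.43, 11.79, 11.96, 11.96 and 12.60 in gland and from 6.71 to 12.19 with a median of 9.81 in tumors, with a difference of -2.16 ± 0.51 (SE), adjusted p = 4.25e-04. Sparc (osteonectin) ranged from 9.91 to 12.90 with a median of 10.64 in tumors against 11.03 to 12.44 in gland, at -0.93 ± 0.42 (SE), adjusted p = 0.0621. Another Sparc probe set was called lower at -1.14 ± 0.35 (SE), adjusted p = 0.00651.

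The crosslinking enzymes parted. Loxl1, the lysyl oxidase of elastic fibers, read 8.83, 9.54, 9.72, 10.34 and 10.36 in gland and from 5.00 to 9.85 with a median of 5.35 in tumors, with 12 of 22 above the floor and a difference of -3.88 ± 0.66 (SE), adjusted p = 3.18e-06. Lox itself read 6.31, 6.87, 6.90, 7.33 and 7.40 in gland and from 6.64 to 9.06 with a median of 7.18 in tumors, with a difference of 0.29 ± 0.26 (SE), adjusted p = 0.362 that did not pass. A further Lox probe set was called lower at -1.50 ± 0.57 (SE), adjusted p = 0.0264, so the probe sets of Lox disagree.

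All 3 surface receptors and markers fell. Pdgfra read 8.81, 9.18, 9.19, 9.62 and 9.73 in gland and from 5.00 to 7.74 with a median of 5.25 in tumors, with 16 of 22 above the floor and every tumor at least 1 log2 unit below the lowest gland. It had the smallest adjusted p of the list, with a difference of -3.91 ± 0.38 (SE), adjusted p = 1.35e-11. Pdgfrb ranged from 5.80 to 9.21 with a median of 6.92 against 8.59 to 9.28 in gland, and Thy1, a surface glycoprotein of fibroblasts and lymphocytes, from 6.02 to 9.56 with a median of 7.14 against 7.94 to 9.91. Their differences were -1.94 ± 0.42 (SE), adjusted p = 1.52e-04 for Pdgfrb and -1.76 ± 0.45 (SE), adjusted p = 0.00107 for Thy1. The 4 genes of the platelet-derived growth factor ligands, by comparison, held no call, with differences from -0.055 to 0.37.

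The secreted and other fibroblast products fell in 4 of 4. Gsn (gelsolin, an actin-severing protein that is also secreted) read 11.22, 11.60, 11.73, 12.10 and 12.42 in gland and from 7.25 to 9.85 with a median of 8.46 in tumors, without overlap. Its difference was -3.39 ± 0.37 (SE), adjusted p = 3.14e-10, 10.5-fold, and all its probe sets were called lower. Serpinf1 (pigment epithelium-derived factor) ranged from 6.82 to 10.57 with a median of 7.99 against 10.12 to 10.60, and Timp2 (an inhibitor of metalloproteinases) from 8.25 to 11.30 with a median of 9.49 against 10.56 to 11.95. Clec3b (tetranectin) was near the floor throughout and ranged from 5.00 to 6.54 with a median of 5.52 against 5.58 to 7.09. Its difference of -0.85 ± 0.29 (SE), adjusted p = 0.0124 no longer passed with a floor of 100 (-0.089) or without gland replicate 3 (-0.67, adjusted p = 0.0752).

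**Figure D2:**
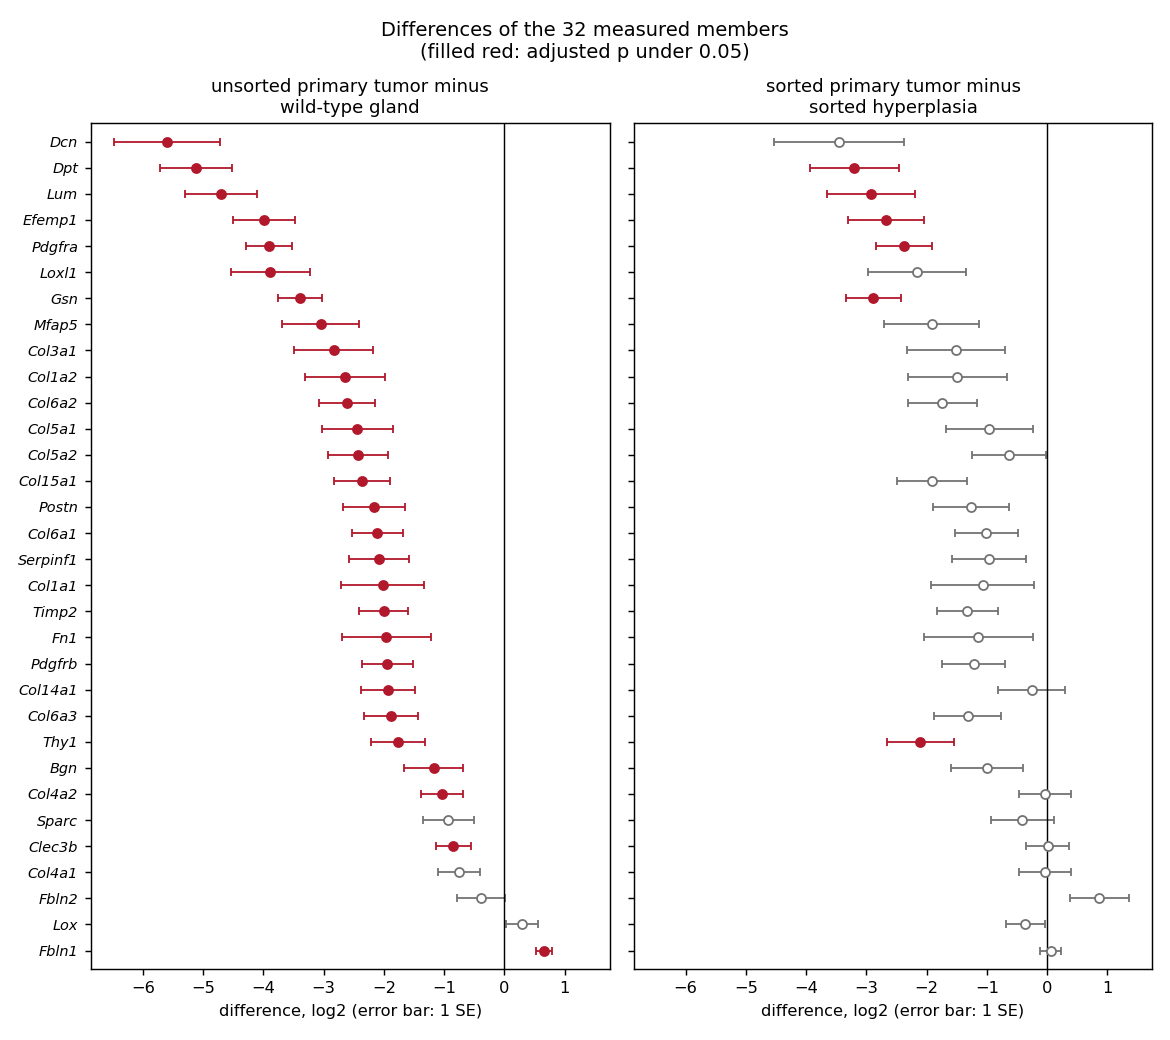
Log2 differences (horizontal axis, ± 1 SE) of the 32 members, unsorted primary tumor minus wild-type gland in one panel and sorted primary tumor minus sorted hyperplasia in the other; filled red points have a limma adjusted p under 0.05. Dcn and Dpt lie farthest to the left in the gland comparison, at -5.60 and -5.12, and 6 members are filled in the comparison with hyperplasia.

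Of the 28 called members, 24 were called in all 15 settings tried. Of 31 further probe sets of 20 members, 21 were called lower and none higher at adjusted p under 0.05 by limma, and no probe set of a member was called against another of the same gene in any comparison.

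Among matrix genes outside the list, falls outnumbered rises. Of 38 further matrix genes, 19 fell and 2 rose, where 21.5% of all tested genes fell and 29.4% rose. The falls were led by Ogn (osteoglycin, -3.94 ± 0.43 (SE), adjusted p = 3.72e-10), Nid1 (nidogen-1, a basement membrane linker, -2.89 ± 0.57 (SE), adjusted p = 4.23e-05) and Fbln5 (fibulin-5, -2.50 ± 0.48 (SE), adjusted p = 2.87e-05). Tnc (tenascin-C, a glycoprotein of remodelled stroma) rose, with 2.06 ± 0.52 (SE), adjusted p = 9.71e-04. Of 20 genes that process collagen, 3 fell and 4 rose, both smaller shares than the 21.5% and 29.4% over all tested genes. The procollagen C-proteinase enhancers Pcolce2 (-3.43 ± 0.26 (SE), adjusted p = 6.75e-15) and Pcolce (-2.28 ± 0.46 (SE), adjusted p = 5.72e-05) fell, as did the crosslinker Loxl3 (-1.11 ± 0.22 (SE), adjusted p = 5.95e-05). The genes that rose act inside the secretory pathway of any cell: P4hb, Ppib, Colgalt1 and Plod3.

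Fibroblast and endothelial markers outside the list were mostly lower in tumors, and pericyte and adipocyte markers were mixed. Over all tested genes, 21.5% fell and 29.4% rose. Of 18 other fibroblast markers, 13 fell and none rose at adjusted p under 0.05, led by the chemokine Cxcl12 (-3.42 ± 0.57 (SE), adjusted p = 2.61e-06), and their mean level was 8.35 to 8.89 per gland and 6.66 to 8.35 per tumor. Of 12 endothelial markers, 10 fell and none rose at adjusted p under 0.05, led by Tek (-3.12 ± 0.22 (SE), adjusted p = 1.17e-15), with a mean of 7.35 to 8.56 in gland and 5.54 to 7.07 in tumors. Of 10 pericyte and smooth muscle genes, 5 fell, led by Myh11 (-4.54 ± 0.44 (SE), adjusted p = 1.59e-11 by limma), and 3 rose, with means of 7.85 to 8.94 and 7.09 to 8.55. Acta2, on this list, read 10.47 to 12.14 in lacZ+ sorted primary tumors and 9.89 to 11.53 in unsorted ones. The list names therefore do not settle which cells made a transcript. The fat cell gene Fabp4 fell (-5.31 ± 0.77 (SE), adjusted p = 1.99e-07), but of 7 adipocyte markers tested it was the only one lower, 2 rose, and Pparg was at the floor in every tumor. The adipocyte mean was 6.21 to 7.20 in gland and 5.79 to 7.80 in tumors. Luminal epithelial markers went the other way, with 5 of 10 higher and 1 lower and means of 9.32 to 10.80 and 10.05 to 11.60. Macrophage markers (1 of 10 higher, 4 lower) had means of 8.30 to 9.77 and 7.43 to 9.45, and of 3 Schwann cell genes Sox10 rose, with means of 6.17 to 6.61 and 6.53 to 8.76. The part of cell composition in the fall of the matrix genes was not tested.

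Taken as a mean over the members, the matrix transcripts of sorted hyperplastic cells lay near the level of whole gland, but single members differed. Dcn read 11.98, 12.01, 12.14 and 12.16 in the 4 hyperplasia samples, within the gland range of 11.60 to 13.03. Col1a1 read 9.89, 10.003, 10.75 and 10.90 against 10.11 to 11.41 in gland, and Pdgfra 8.85, 9.10, 9.28 and 9.30 against 8.81 to 9.73. Pdgfrb read 7.32 and 7.42 in hyperplasia replicates 1 and 2, against a lowest gland value of 8.59. Loxl1, Sparc, Postn and Fbln2 also had hyperplasia replicates below the lowest gland. Some members, Bgn among them, had replicates above the highest gland. Only Col6a1 lay wholly below the gland among the members, at 8.59, 8.72, 9.26 and 9.37 against a lowest gland value of 9.40, and no member lay wholly above it, where 8.75% of all tested genes lay below and 9.27% above. The mean over the 32 members was 9.42 to 10.03 per hyperplasia sample and 9.69 to 10.43 per gland. Sort and lesion differ at once between these groups and cannot be told apart, so the values are given without a test. By label the hyperplasia samples are lacZ+ epithelial cells, and their mean over these fibroblast-defining genes was near that of gland. Macrophage markers of the hyperplasia samples were also high, with a mean of 10.10 to 11.35 against 8.30 to 9.77 in gland.

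The comparison of sorted primary tumors with sorted hyperplasia asked how the marked cells changed from the early lesion to the tumor. Of the 32 members, 6 fell and none rose (limma, adjusted p under 0.05), where 2.5% of all tested genes fell and 1.29% rose. The 6 were Gsn, Pdgfra, Dpt, Efemp1, Lum and Thy1. At an unadjusted p under 0.05, 15 members were lower and none higher, against 17.6% of all tested genes in either direction. The median difference was -1.24, with 29 of 32 below 0, against 0.0072 over all genes.

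Gsn read 11.28, 11.93, 12.01 and 12.53 in hyperplasia and from 6.75 to 10.30 with a median of 9.04 in the 8 sorted tumors. It was the only member whose sorted tumors all lay below all hyperplasia samples, a position held by 0.733% of tested genes, and its difference was -2.89 ± 0.45 (SE), adjusted p = 3.13e-05. Pdgfra ranged from 5.70 to 9.28 with a median of 6.34 in sorted tumors against 8.85 to 9.30 in hyperplasia. The single overlapping tumor was G294T, from mouse G294, at 9.28, and the difference was -2.38 ± 0.47 (SE), adjusted p = 9.85e-04. Dpt read 10.01, 10.25, 10.81 and 11.04 in hyperplasia and from 6.07 to 10.90 with a median of 6.47 in sorted tumors, with -3.20 ± 0.74 (SE), adjusted p = 0.00634. Here too G294T was the highest, at 10.90, followed by F405T at 8.60.

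Efemp1 ranged from 5.00 to 9.94 with a median of 5.91 in sorted tumors, 6 of 8 above the floor, against 8.70 to 9.78 in hyperplasia, and differed by -2.67 ± 0.64 (SE), adjusted p = 0.00872. Lum ranged from 5.64 to 9.72 with a median of 6.39 against 9.21 to 10.59, at -2.92 ± 0.73 (SE), adjusted p = 0.0127. Thy1 ranged from 5.69 to 9.53 with a median of 7.26 against 8.74 to 10.02, at -2.10 ± 0.56 (SE), adjusted p = 0.0202. In all 3 genes G294T, at 9.94, 9.72 and 9.53, was the only sorted tumor above the lowest hyperplasia value.

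The collagens did not pass. Col1a1 ranged from 7.68 to 11.72 with a median of 8.76 in sorted tumors, reaching above the highest hyperplasia value of 10.90, with a difference of -1.07 ± 0.85 (SE), adjusted p = 0.549. Col3a1 ranged from 9.75 to 13.34 with a median of 10.47 against 12.36 to 13.02, at -1.51 ± 0.81 (SE), adjusted p = 0.326. Col4a1 overlapped between the groups, 9.14 to 11.41 against 9.79 to 11.41, at -0.035 ± 0.43 (SE), adjusted p = 0.986. Dcn had the largest difference on the list, -3.45 ± 1.08 (SE), adjusted p = 0.0581, and missed the threshold with sorted tumors spread from 6.51 to 12.18 with a median of 7.51. It passed with the floor at 100 (-3.42, adjusted p = 0.0178), without the mouse block (-3.70, adjusted p = 0.0225), with means per mouse (-3.22, adjusted p = 0.0438) and without G294T (-4.03, adjusted p = 0.0158). Fn1 (-1.14 ± 0.90 (SE), adjusted p = 0.547) and Postn (-1.26 ± 0.63 (SE), adjusted p = 0.285) did not pass either. Of the other fibrillar and type VI collagen chains none passed, with differences from -1.74 to -0.26.

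A single sorted tumor lay at the top for most members. G294T was the highest of the 8 for 27 of the 32 members, with a median deviation of 2.24 from the group median. It read 11.72 for Col1a1, 12.18 for Dcn and 12.46 for Fn1, above the top of the hyperplasia range. The median deviation was 0.36, 0.61 and 0.069 in F464T, F405T and E344T, and -0.51 to -0.16 in F433T1, F433T3, F433T4 and G421T1. The log2 ratio of 3′ over 5′ Gapdh was -0.36 to -0.11 in G294T, F464T, F405T and E344T. It was -0.0066 to 0.11 in the other sorted tumors. The part of array quality in this division was not tested. Without G294T 10 members fell, adding Col15a1, Col6a2, Dcn and Loxl1. The count rested on the hyperplasia samples as well: it was 3 without hyperplasia replicate 1 (Gsn, Pdgfra and Efemp1), 2 without replicates 1 and 2 (Gsn and Pdgfra), 3 with the spike-in signal in the model, 2 and 4 among sorted arrays whose 3′ over 5′ Gapdh ratio lay below and above -0.1, 4 without the 3 tumors of mouse F433, and 0 when only the groups compared entered the fit. No member was called in all 18 settings, but Gsn and Pdgfra were called in every one except the last named (limma adjusted p = 0.0825 and 0.197 there). Several differences stayed close to their size where the call was lost: without hyperplasia replicate 1 Dpt differed by -3.03 and Lum by -2.98, and with only the groups compared Gsn differed by -2.92 and Pdgfra by -2.35.

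Macrophage markers were also high in hyperplasia and in some sorted tumors. Their mean was 11.35 and 11.22 in hyperplasia replicates 1 and 2, 10.98 in G294T, 10.49 in F405T and 10.28 in E344T. It ranged from 10.10 to 11.35 in hyperplasia and from 7.58 to 10.98 in sorted tumors. None of the 10 macrophage markers passed in this comparison by limma, with a median difference of -1.37 and all 10 below 0. Of the endothelial markers 4 of 12 fell, with means of 6.10 to 7.19 and 5.41 to 6.47, and of 18 other fibroblast markers 5 fell, with means of 8.38 to 8.68 and 6.70 to 8.78. Fabp4 of the 7 adipocyte markers (-3.24 ± 0.95 (SE), adjusted p = 0.0404 by limma) and Myh11 of the 10 pericyte and smooth muscle genes (-2.02 ± 0.54 (SE), adjusted p = 0.0227) fell. Adipoq, Pparg and Cidec were at the floor in all sorted tumors, and no luminal marker passed. The part of carried-over cells in these differences was not tested.

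Of 38 other matrix genes, 4 fell and none rose by limma, where 2.5% of all tested genes fell and 1.29% rose. The falls were led by Ogn (-2.77 ± 0.53 (SE), adjusted p = 7.06e-04), Smoc2 (-1.50 ± 0.41 (SE), adjusted p = 0.0232) and Fbln7 (-1.30 ± 0.33 (SE), adjusted p = 0.0152). Pcolce2 was the only one of 20 collagen-processing genes called, at -2.84 ± 0.32 (SE), adjusted p = 1.99e-08. None of the 4 ligand genes of the PDGF family was called.

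Sorting for lacZ+ cells was set against unsorted tumors of the same genotype to see what the sort did to matrix transcripts. No member was lower in sorted tumors and 5 of 32 were higher (limma, adjusted p under 0.05), where 9.62% of all tested genes were higher and 15.7% lower. At an unadjusted p under 0.05, 12 members were higher and none lower, where 36.5% of all tested genes passed in either direction, a share near that of the members. Pdgfra ranged from 5.70 to 9.28 with a median of 6.34 in sorted and from 5.00 to 7.74 with a median of 5.25 in unsorted tumors, a difference of 1.36 ± 0.33 (SE), adjusted p = 0.00180. Dpt ranged from 6.07 to 10.90 with a median of 6.47 in sorted tumors and from 5.00 to 9.12 with a median of 5.30 in unsorted tumors, at 1.66 ± 0.52 (SE), adjusted p = 0.0152. Col5a2 (1.23 ± 0.44 (SE), adjusted p = 0.0327), Clec3b (0.70 ± 0.25 (SE), adjusted p = 0.0338) and Col14a1 (1.08 ± 0.39 (SE), adjusted p = 0.0359) were also higher. In each of these 5 genes the ranges overlapped.

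The other genes named in every comparison did not pass here. The difference was 1.80 ± 0.76 (SE), adjusted p = 0.0764 for Dcn, 1.15 ± 0.57 (SE), adjusted p = 0.134 for Col3a1 and 0.61 ± 0.60 (SE), adjusted p = 0.492 for Col1a1. It was 0.80 ± 0.64 (SE), adjusted p = 0.378 for Fn1, -0.017 ± 0.44 (SE), adjusted p = 0.986 for Postn and -0.025 ± 0.30 (SE), adjusted p = 0.966 for Col4a1. Dcn passed with means per mouse (2.25), without the tumors of mouse F433 (2.28) and without C117T6 and B459L (2.06), and Col3a1 in the first (1.61) and last (1.36) of these settings. Without G294T only Pdgfra was called, and without the unsorted tumors C117T6 and B459L 11 members were, so the number of calls followed single tumors in both groups. Sorted and unsorted tumors came from different mice, so sort and mouse cannot be told apart. Macrophage markers were higher in the sorted tumors in 6 of 10, led by Mrc1 (2.28 ± 0.53 (SE), adjusted p = 0.00112), with means of 7.58 to 10.98 against 7.43 to 9.45. Luminal markers were lower in 5 of 10 and higher in 1, with means of 9.57 to 11.17 against 10.05 to 11.60. Of the other fibroblast markers 5 of 18 were higher and none lower at adjusted p under 0.05, led by Cxcl12 (2.23 ± 0.50 (SE), adjusted p = 7.67e-04). Among other matrix genes Timp3 (0.97 ± 0.35 (SE), adjusted p = 0.0362), Col16a1 and Prelp were higher and Hspg2 lower, and among collagen-processing genes Loxl3 was higher (0.80 ± 0.19 (SE), adjusted p = 0.00190) and Mia3 and P4hb lower. Endothelial and adipocyte markers and PDGF ligands held no call, and Kcnj8 of the pericyte genes and Sox10 of the Schwann genes were lower. The part of other cell types in the higher values was not tested.

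Most members varied more between tumors than the bulk of the tested genes. Over the 22 unsorted primary tumors the SD of Dcn was 1.89, higher than that of 99.8% of tested genes, and the median SD of the members was 1.04 against 0.31 for all tested genes. Fn1 followed with 1.83, Col3a1 with 1.63 and Col1a1 with 1.61. Col3a1 spanned the widest range, 6.96 log2 units or 124-fold from the lowest tumor to the highest. Fbln1 (SD 0.23) and Clec3b (0.36) were the steadiest. In gland the median SD of the members was 0.46 against 0.29 for all genes, in sorted tumors 1.21 against 0.39, and in unsorted transplants 0.32 against 0.25.

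A few tumors carried most of the high values. C117T6 was the highest of the 22 for 20 members, with a median deviation of 2.52 from the gene medians, and B459L for 6, with 2.16. D14T2 was highest for 3 and lay higher than all but those 2 by its median deviation. C393T1 was lowest alone for 10 members, with a median deviation of -0.82. C231T1 stood apart in pattern: it had the highest Fn1, at 12.84, with Col1a1 at 9.07, and was lowest alone for 4 members. The endothelial mean was also highest in C117T6 (7.07) and B459L (6.71), and the macrophage mean was highest in C117T6 (9.45).

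**Figure D3:**
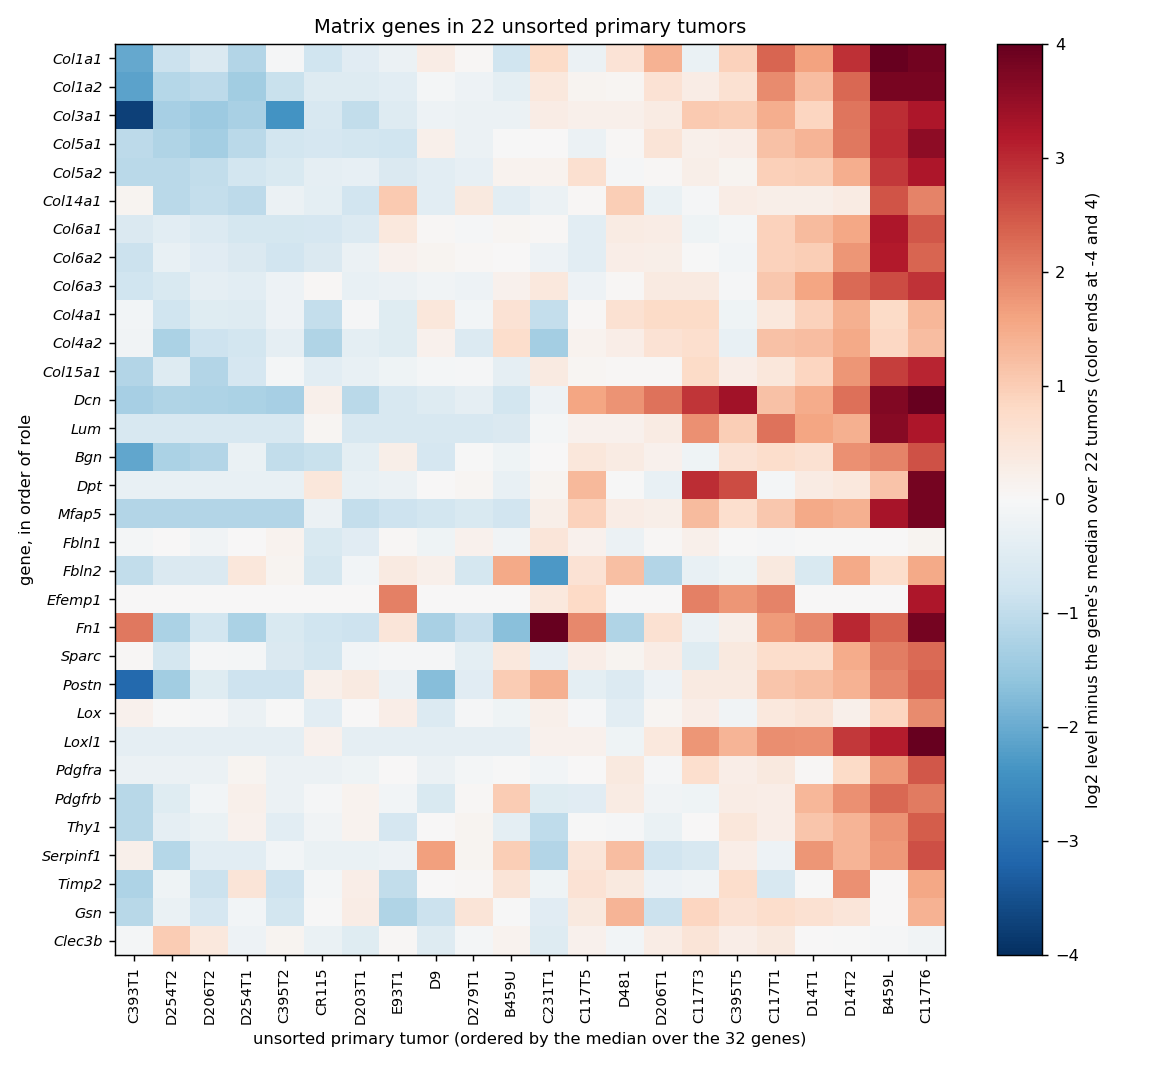
Log2 level minus the gene's median (colour, ends at ±4) of 32 members (rows) in 22 unsorted primary tumors (columns, ordered by their median deviation). B459L and C117T6 at the high end are raised for nearly all members, and Fbln1 and Clec3b stay near their medians in most tumors.

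Tumors of a single mouse could lie far apart. The median absolute difference over the members was 0.72 for the 11 same-mouse pairs and 0.71 for the 220 pairs from different mice, values that share tumors and are given as a description. B459L and B459U, from 1 mouse, differed by 4.90 in Col1a1, at 12.42 and 7.52. C395T2 and C395T5 differed by 4.67 in Dcn. C117T5 and C117T6 differed by 4.32 in Loxl1.

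The members varied together from tumor to tumor. Over 496 pairs of members the median r across the 22 tumors was 0.66 (-0.33 to 0.99), against 0.0036 over pairs of all tested genes, and across the 8 sorted tumors it was 0.67. These are descriptions over samples that share mice and array scaling. Col15a1 (r = 0.96), Col5a2 (0.95), Pdgfra (0.95) and Col5a1 (0.95) followed the median of the other members most closely. Clec3b (-0.024) and Fbln1 (0.12) did so least. Members that neighbour each other on a chromosome, 4 pairs in all, were close: Col6a1 and Col6a2 (0.99), Col4a1 and Col4a2 (0.96), Col3a1 and Col5a2 (0.89) and Dcn and Lum (0.88).

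Col1a1 was set against 14 partners over the means of the 14 mice, with two-sided permutation p-values adjusted over the 14 pairs by Benjamini-Hochberg (1e-05 is the smallest these permutations can give). Its partner chain Col1a2 gave r = 0.97 and rho = 0.98 (permutation p = 1e-05 and 1e-05, adjusted over 14 pairs 4.67e-05 and 1.40e-04), and r was 0.95 without the 2 mice farthest from the Col1a1 median. Col3a1 gave r = 0.94 and rho = 0.89 (permutation p = 1e-05 and 7e-05, adjusted over 14 pairs 4.67e-05 and 3.27e-04) and 0.91 without those mice. Col15a1 gave r = 0.93 and rho = 0.93 (permutation p = 1e-05 and 3e-05, adjusted over 14 pairs 4.67e-05 and 2.10e-04) and 0.88. In these 3 pairs the mice lay close to a line.

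Col6a1 gave r = 0.84 and rho = 0.85 (permutation p = 1e-04 and 2.80e-04, adjusted over 14 pairs 3.50e-04 and 7.84e-04) and 0.82 without those mice, Dcn gave r = 0.81 and rho = 0.86 (permutation p = 4e-04 and 1.50e-04, adjusted over 14 pairs 0.00100 and 5.25e-04) and 0.77, and Lum gave r = 0.80 and rho = 0.80 (permutation p = 4.30e-04 and 0.00105, adjusted over 14 pairs 0.00100 and 0.00245) and 0.79. Sparc gave r = 0.73 and rho = 0.67 (permutation p = 0.00325 and 0.0112, adjusted over 14 pairs 0.00506 and 0.0224) and 0.83. Col4a1 was looser, with r = 0.65 and rho = 0.60 (permutation p = 0.0123 and 0.0266, adjusted over 14 pairs 0.0172 and 0.0340) and 0.66. Pdgfrb gave r = 0.78 and rho = 0.63 (permutation p = 0.00114 and 0.0177, adjusted over 14 pairs 0.00228 and 0.0275) and Postn r = 0.77 and rho = 0.64 (permutation p = 0.00141 and 0.0157, adjusted over 14 pairs 0.00247 and 0.0275), but r fell to 0.55 and 0.54 without those mice, so both relations rest in part on them.

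Fn1 did not pass, at r = 0.30 and rho = 0.39 (permutation p = 0.299 and 0.165, adjusted over 14 pairs 0.299 and 0.165), and gave 0.50 without the 2 mice. Lox gave r = 0.40 and rho = 0.51 (permutation p = 0.152 and 0.0648, adjusted over 14 pairs 0.164 and 0.0756) and 0.53, and Gsn r = 0.46 and rho = 0.50 (permutation p = 0.0953 and 0.0711, adjusted over 14 pairs 0.111 and 0.0766) and 0.23. Dpt passed by rank alone, at r = 0.50 and rho = 0.60 (permutation p = 0.0720 and 0.0267, adjusted over 14 pairs 0.0916 and 0.0340), with 0.54 without the 2 mice.

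**Figure D4:**
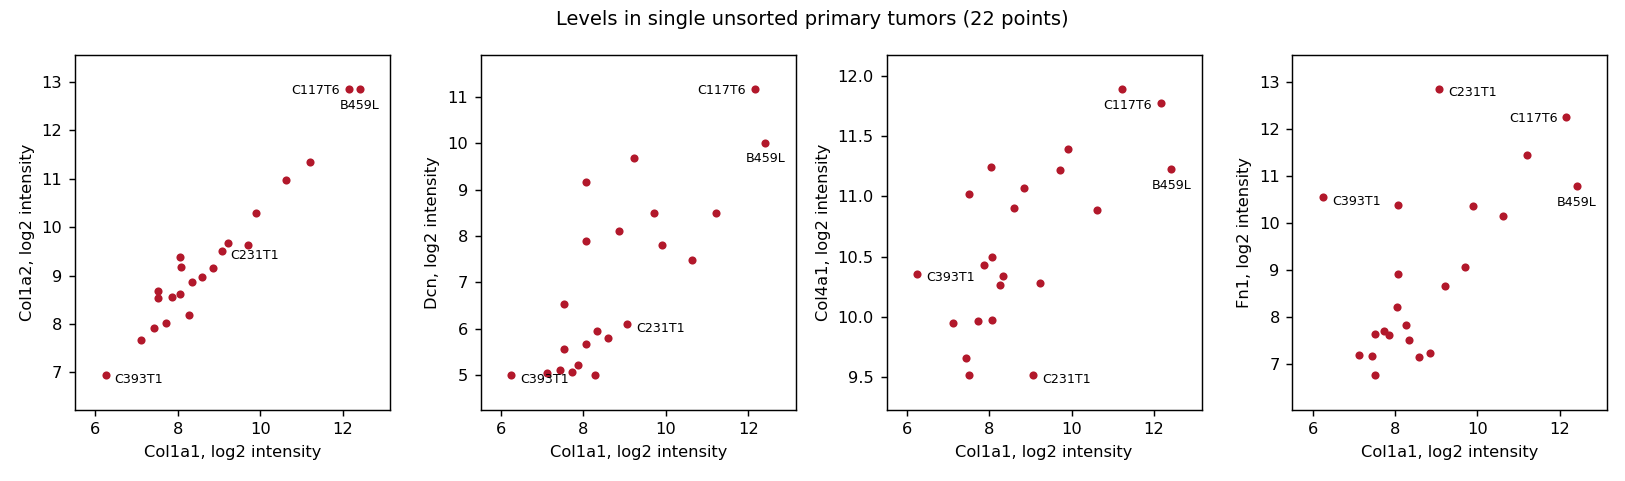
Log2 level of Col1a2, Dcn, Col4a1 and Fn1 (vertical axes) against Col1a1 (horizontal axes) in 22 unsorted primary tumors, each point a tumor. Col1a2 lies along a line, Dcn and Col4a1 scatter more, and C231T1 lies off the Fn1 trend with Fn1 at 12.84 and Col1a1 at 9.07.

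Transplanted tumors were compared with primary tumors, separately for sorted and unsorted samples, to see whether growth in a RAG2-/- host changed the matrix genes. No member was called in sorted tumors by limma at adjusted p under 0.05 (background 0% of tested genes higher and 0% lower), and 1 was lower at an unadjusted p under 0.05 (Pdgfrb, -0.89 ± 0.41), against 4.0% of all genes. Pdgfra ranged from 5.27 to 7.51 with a median of 6.05 in the 7 sorted transplants, with 3 of them below the lowest sorted primary tumor, and differed by -0.42 ± 0.37 (SE), adjusted p = 1. The difference was 0.057 ± 0.67 (SE), adjusted p = 1 for Col1a1, -0.051 ± 0.64 (SE), adjusted p = 1 for Col3a1 and -0.19 ± 0.34 (SE), adjusted p = 1 for Col4a1. It was -0.17 ± 0.85 (SE), adjusted p = 1 for Dcn and -0.069 ± 0.58 (SE), adjusted p = 1 for Dpt. Fn1 (0.23 ± 0.71 (SE), adjusted p = 1) and Postn (0.43 ± 0.50 (SE), adjusted p = 1) did not pass either. Plain means were 9.05 in sorted transplants and 9.20 in sorted primary tumors for Col1a1, and 9.57 and 9.67 for Fn1. For these genes the fitted difference, weighted by mouse, has the opposite sign to that of the plain means.

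Unsorted transplants gave no call among the members, where 0.752% of all tested genes were higher and 0.191% lower (limma, adjusted p under 0.05), and 1 member was higher at an unadjusted p under 0.05 (Col4a2, 0.91 ± 0.40), against 10.3% of all genes. Col1a1 read 9.61, 9.64, 9.68 and 9.90 in the 4 transplants, inside the primary range of 6.25 to 12.42 and above its median of 8.31, with a difference of 1.23 ± 0.79 (SE), adjusted p = 0.674. Fn1 read 9.42, 9.66, 10.10 and 10.19 in transplants, at 1.16 ± 0.84 (SE), adjusted p = 0.747. Dcn read 5.83, 7.60, 8.17 and 8.24, at 0.62 ± 1.01 (SE), adjusted p = 0.960. All 3 genes lay within the spread of the primary tumors. Col3a1 (0.80 ± 0.76 (SE), adjusted p = 0.857), Col4a1 (0.52 ± 0.40 (SE), adjusted p = 0.774), Dpt (0.058 ± 0.69 (SE), adjusted p = 1), Postn (-0.068 ± 0.59 (SE), adjusted p = 1) and Pdgfra (0.0049 ± 0.44 (SE), adjusted p = 1) did not pass. With only 2 donor mice behind these 4 samples, a p that misses the threshold does not show that the groups match.

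The test of the difference itself, the transplant effect in sorted tumors minus that in unsorted tumors, held no call among the members (limma, adjusted p under 0.05, background 0.0132% higher and 0.0726% lower), and 1 member passed at an unadjusted p under 0.05 against 7.87% of all genes. It was -1.17 ± 1.05 (SE), adjusted p = 0.881 for Col1a1, -0.85 ± 1.00 (SE), adjusted p = 0.933 for Col3a1 and -0.71 ± 0.53 (SE), adjusted p = 0.839 for Col4a1. For Dcn it was -0.78 ± 1.33 (SE), adjusted p = 0.964, and for Dpt -0.13 ± 0.91 (SE), adjusted p = 0.997. For Fn1 it was -0.92 ± 1.11 (SE), adjusted p = 0.936, for Postn 0.50 ± 0.78 (SE), adjusted p = 0.954 and for Pdgfra -0.42 ± 0.57 (SE), adjusted p = 0.945. None of the 10 further lists of matrix, fibroblast and other cell type genes held a call at adjusted p under 0.05 by limma in any of the 3 transplant comparisons.

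Where a tumor and its own transplant were both profiled, the members gave mixed values, each from single samples with no test. The unsorted tumor CR115 and its transplant CR115-3 differed upward in 30 of 32 members with a median of 0.70, and CR115-4 in 26 of 32 with a median of 0.75. CR115 was itself low among unsorted primary tumors, with a median deviation of -0.37 and 6 of 32 members above their median. Col1a1 differed most in both transplants, by 2.09 and 2.16, while Postn was lower in both, with differences of -0.61 and -0.49. The sorted tumor F433T4 and its passage 1 transplant differed upward in 17 members and downward in 15, with a median of 0.026. Between passage 2 and passage 4 of tumor D279T1, sorted, 23 members were lower and 9 higher, with a median of -0.54. Dcn differed by -2.42 between those passages and Col4a1 was 2.30 higher. The log2 ratio of 3′ over 5′ Gapdh was -0.32 on the passage 2 array and -0.029 on the passage 4 array. Passage and array quality cannot be told apart in this pair.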

How the data were processed

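Total RNA was extracted with Trizol and cleaned on columns, per the labels' protocols, and hybridised to Affymetrix mouse arrays. The authors deposited 1 intensity per probe set and array on a linear scale; their summarising and scaling are not given in the sources used here. Medians per array were 42.9 to 57.8, and 37.4% of values lay below the floor. Of 45101 probe sets, 64 were controls, and 1 with an extreme value was left out. Counted over the whole set, controls included, 34958 carried 1 gene symbol and 932 several in the platform annotation. Apart from controls, 9160 carried none, and the members had 70. Deposited intensities were floored at 32 and log2 transformed here. Tests took the genes that exceeded the 40th percentile of the array in 4 arrays or more.

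Differences were fitted with limma 3.58.1 (lmFit and eBayes, R 4.3.3) over 50 replicates in 6 groups, the 2 arrays of tumor CR115 averaged, with the mouse of origin as a random block (consensus correlation 0.358) and Benjamini-Hochberg adjustment over 15150 genes; a call is an adjusted p under 0.05. The fit was tested on simulated data with a single spread per gene over all groups and no floor. That test does not cover groups of unequal spread or values at the floor. Correlations used Python 3.11.15 with numpy 2.4.6, pandas 2.3.3 and scipy 1.17.1 (100000 permutations); figures used matplotlib 3.10.9. Every member is named with its levels. Differences are given for the 8 largest called members and for Col1a1, Col3a1, Col4a1, Dcn, Dpt, Fn1, Postn and Pdgfra in each comparison, and for some others chosen after their values were seen; from the further matrix, collagen-processing and PDGF ligand lists the 3 largest called genes are named, and some others chosen after their values were seen. The members, the 10 further gene lists and the tests were chosen with earlier results of these data known. Fbn1 is not analysed here. The number of arrays limits the precision. Samples were grouped by their titles. The alternatives changed the floor, the scaling, the probe set rule, the filter, the block, the groups fitted, control-probe covariates, and single samples or mice.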

Additional observations from a re-analysis of the deposited data

Results flagged for a closer look

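Dixon's test was run on each member in each group of 4 to 10 samples, 160 tests, of which chance flags about 1 in 20, or 8; 8 values stood apart from their group, the number chance gives. In wild-type gland replicate 4, Pdgfrb was low at 8.59 (group median 9.14) and Timp2 low at 10.56 (11.59); this array also had the highest 3′ over 5′ Actb ratio. In hyperplasia replicate 4, Fbln2 was high at 9.15 (8.35). In the sorted primary tumor G294T, Fn1 was high at 12.46 (9.69) and Pdgfra at 9.28 (6.34), 2 of the 27 members for which this tumor was the highest. In the sorted primary tumor G421T1, Gsn was low at 6.75 (9.04). In the unsorted transplant CR115-3, Col6a2 was low at 7.10 (7.71). In the unsorted transplant CR90-1, Efemp1 read 5.03 while the other 3 samples were at the floor of 5.00.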

How the results depend on the processing

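Over the alternatives the gland comparison kept 26 to 30 calls among the 32 members. For progression from hyperplasia (6 calls), the count was 0 with only the groups compared, 3 with the spike-in covariate, 2 without hyperplasia replicates 1 and 2, 2 among sorted arrays with a Gapdh ratio below -0.1, 10 without G294T, and 3 to 6 with each hyperplasia replicate left out. For sorted against unsorted tumors (5 calls) it was 2 with the floor at 100, 3 without the mouse block, 10 with means per mouse, 3 with only the groups compared, 1 without G294T and 11 without C117T6 and B459L. In unsorted transplants the mean of all probe sets gave 1 call (Fbln1) in place of 0. Where the cause of a change is not given by fewer samples, it was not tested. The settings without G294T, without C117T6 and B459L, and without the tumors of 1 mouse (D279, F433, CR90 or CR115) were chosen after seeing the data.

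Correlations with Col1a1 passed when each tumor was a point for Dpt (r = 0.45), Fn1 (0.62), Lox (0.69) and Gsn (0.45). That setting counts several tumors of 1 mouse as independent, so its p-values do not replace those over mouse means. With the floor at 16, Dpt passed (0.64). Single-gene differences changed sign in 48 settings, all of them values that were not called. Col4a1 against hyperplasia became 0.020 with quantile normalization, 0.058 with the mean of probe sets, 0.035 without the block and 0.22 at a Gapdh ratio above -0.1, and ran from -0.28 to 0.26 with each hyperplasia replicate left out, positive without replicate 3 or 4 (0.082). Against unsorted tumors, sorted Col4a1 became 0.013 (quantile), 0.19 (probe set mean) and 0.028 (without C117T6 and B459L), and Postn 0.023 (quantile), 0.12 (mean per mouse), 0.027 (only the groups compared) and 0.11 (without C117T6 and B459L). In sorted transplants Col1a1 became -0.027 (probe set mean), -0.14 (no block), -0.28 (mean per mouse), -0.18 (Gapdh below -0.1) and -0.52 (without F433). Col3a1 became 0.015 (probe set mean), 0.063 (only the groups compared), 0.33 (without D279) and 0.24 (without G294T), and Col4a1 0.016 (Gapdh above -0.1) and 0.036 (without F433). Dcn became 0.30 without G294T, Dpt 0.052 (Gapdh below -0.1), 0.21 (without D279) and 0.40 (without G294T), and Fn1 -0.097 (no block) and -0.11 (Gapdh above -0.1). In unsorted transplants Dpt became -0.15 (floor at 100), -0.24 (without CR90) and, with each transplant replicate left out, -0.050 to 0.34. Postn became 0.14 (mean per mouse), 0.35 (without CR115), 0.022 (without C117T6 and B459L) and, with each transplant replicate left out, -0.21 to 0.051. Pdgfra became -0.041 (floor at 100), -0.0041 (probe set mean), -0.0086 (no filter), -0.15 (no block), -0.0089 (mean per mouse), -0.034 (only the groups compared), -0.054 (without CR115) and, with each transplant replicate left out, -0.15 to 0.12. The difference of the transplant effects of Dpt became 0.13 with the floor at 100.

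Intensities near the floor limit Efemp1, Loxl1, Dpt, Lum, Pdgfra and Clec3b in tumors, where folds are understated. By replicate number, no paired analysis was possible because the numbers were given in accession order and only name samples. The mouse of origin was the block in its place, and it links groups that share a mouse. These mice are E344 and F433 in sorted tumors and transplants, CR115 in unsorted ones, and D279 in unsorted primary tumors and sorted transplants.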
